A study of Mus musculus with 4 samples.

Results

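The endothelin system is a small peptide signalling system made of a ligand precursor, the peptidases that cut it and the receptors it acts on. The members examined were Edn1, which encodes the endothelin-1 precursor, the converting enzyme genes Ece1 and Ece2, and the receptor genes Ednra and Ednrb. They were chosen by the large LPS rise of Edn1 on these same arrays, and each gene was read from its probe set with a single gene symbol and the highest mean over the arrays. Of the 5 genes, 4 had such a probe set, out of 19938 genes on the array with one. Ednra, the endothelin A receptor, was not analysed here because no probe set was named for it. By these probe sets, all 4 measured members were among the 11326 genes that reached a floor of 4.26 on at least 1 array. The probe set so chosen for Ece2 cannot be assigned to that gene, as described below. That floor, the median over all probe sets of their mean value, was set to leave out genes with low values.

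RNA came from cells labelled microglia, the resident macrophages of the brain, and each of 4 groups was hybridised to 1 Affymetrix Mouse Gene 1.0 ST array. The groups were cells labelled Bid-/- (knockout) with lipopolysaccharide (LPS) for 3 h, cells labelled Bid-/- with no agent, wild-type C57Bl cells with LPS for 3 h, and wild-type (WT) C57Bl cells with no agent. LPS is a bacterial cell wall component that activates Toll-like receptor 4, and Bid carries death receptor signals to mitochondria. The sources used here do not give the strain of the cells labelled Bid-/-, how the Bid allele was made, the LPS dose, the age of the animals, whether animals were pooled or how the cells were obtained. With 1 array per group no group has a replicate spread, so a difference between 2 arrays lacks any replicate check.

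The deposited values are read here as log2 expression, although the file does not state the base of the logarithm. Over all 28944 probe sets Pearson's r between pairs of arrays ran from 0.984 to 0.996. The probe set of Bid itself read 5.97 and 5.53 on the LPS and control arrays labelled Bid-/-, against 5.02 and 5.69 on the WT LPS and control arrays. It was thus not lower on both arrays labelled Bid-/-. The sources used here do not say where its probes lie relative to the deleted part, and every direction between genotypes below rests on the labels. Of 13 measured microglia markers, between 10 and 11 were at or above the floor on every array, among them C1qa, a complement subunit, and the integrin gene Itgam. Fcrls, another named marker, read 9.95 with LPS and 10.59 without on the arrays labelled Bid-/-, and 11.01 and 11.53 in WT cells. Gpr34 and Siglech were under the floor on all 4 arrays, and P2ry12 on both LPS arrays. Gpr34, Siglech and P2ry12 were named after their values were seen. The homeostatic microglia receptor Cx3cr1 read 8.35 and 9.76 on the LPS and control arrays labelled Bid-/-, and 8.61 and 9.73 on those of WT cells.

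Endothelin-1 is made as a long precursor that furin-type proteases trim to big endothelin-1, which is inactive until an endothelin-converting enzyme cuts it to the short vasoconstrictor peptide. The peptide acts through the G protein-coupled receptors ETA and ETB, encoded by Ednra and Ednrb. ETA drives contraction of vascular smooth muscle, while ETB releases nitric oxide from endothelium, removes endothelin-1 from the circulation and is abundant on astrocytes in brain. Endothelial cells are the classical source of endothelin-1, and macrophages are known to release it after LPS. Its output is controlled to a large part at the level of Edn1 transcription.

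The start of the mouse Edn1 gene is shown because Edn1 was the member with the large change, and GATA and AP-1 elements are known parts of its promoter in endothelial cells. Sequences are from RefSeq, build GRCm38.p6, and positions count from the annotated transcript start as +1. Capitals mark letters that matched 1 of 6 motifs, searched on both strands in the window from 250 bases before to 50 bases after the start. The upstream run holds no capitals.
Edn1 upstream, chr13:42301226-42301475, plus strand, ending at the base before the start: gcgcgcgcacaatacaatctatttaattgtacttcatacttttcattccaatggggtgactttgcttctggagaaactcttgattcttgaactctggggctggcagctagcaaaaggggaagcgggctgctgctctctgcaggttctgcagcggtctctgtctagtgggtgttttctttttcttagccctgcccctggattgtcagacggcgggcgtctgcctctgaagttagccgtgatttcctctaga
Edn1 GATA match, chr13:42301479-42301494, plus strand: gggtcTTATCTctggc
Edn1 hypoxia element and AP-1 variant matches, chr13:42301494-42301521, plus strand: ctgCACGTtgcctgtgggTGACTAAtca

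The GATA letters TTATCT lay at positions 9 to 14, the hypoxia element ACGTG, read on the opposite strand as CACGT, at positions 22 to 26, and the AP-1 variant TGACTAA at positions 37 to 43. These 3 matches did not overlap each other and all lay after the annotated start. Whether transcription begins at that annotated base in these cells was not examined, so the positions are relative to the annotation only. The consensus AP-1 letters TGACTCA, the NF-kB letters GGGNNNNNCC and the TATA letters TATAAA were not in this window. Bases more than 50 after the annotated start were not searched, so the gene may hold these letters there. Of 32851 windows of 300 bases at mouse gene starts, 2.35% held TGACTAA, 11.2% TTATCT, 19.6% ACGTG, 5.2% TGACTCA, 50.8% GGGNNNNNCC and 13.6% TATAAA. A match is a run of letters and not evidence of binding. GATA and AP-1 elements were already known in this promoter, so nothing is read from these shares.

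Edn1, the ligand gene, was high on both LPS arrays and below the floor on both control arrays. It read 7.64 with LPS and 3.35 without on the arrays labelled Bid-/-. In WT cells it read 6.93 with LPS and 3.45 without. Within each genotype label the LPS array was the high one. The differences were 4.29 on the arrays labelled Bid-/- and 3.48 in WT, or 19.6-fold and 11.2-fold. Since these values chose the gene, they are a description and no test was made of them. In bulk RNA, more cells with the transcript and more transcript per cell cannot be told apart.

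Ordered by LPS change, Edn1 ranked first of 11326 genes on the arrays labelled Bid-/-, ahead of the TNF family ligand Tnfsf15 (3.72). In WT cells it ranked 11, behind Slc7a2 (3.57), an arginine transporter, and ahead of the chemokine Cxcl2 (3.46), a gene named after its value was seen. A gene that is low on the control arrays enters only through the LPS arrays, so its presence among the genes above the floor already required a rise. Its control values lay 0.91 (labelled Bid-/-) and 0.81 (WT) under the floor, a range in which array values can reflect background more than transcript. With the floor put in place of the control values, the LPS changes were 3.38 on the arrays labelled Bid-/- and 2.67 in WT, or 10.4-fold and 6.38-fold. The ranks were lost with it: with all values under the floor raised to it, a setting chosen after seeing the data, Edn1 ranked 5 on the arrays labelled Bid-/- and 33 in WT.

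The Edn1 level was highest on the LPS array labelled Bid-/-, then on the WT LPS array, 0.71 lower, and the 2 control arrays had no order, as both lay under the floor. With 1 array per group no spread between replicates was available to set against the gap between the LPS arrays.

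**Figure D1:**
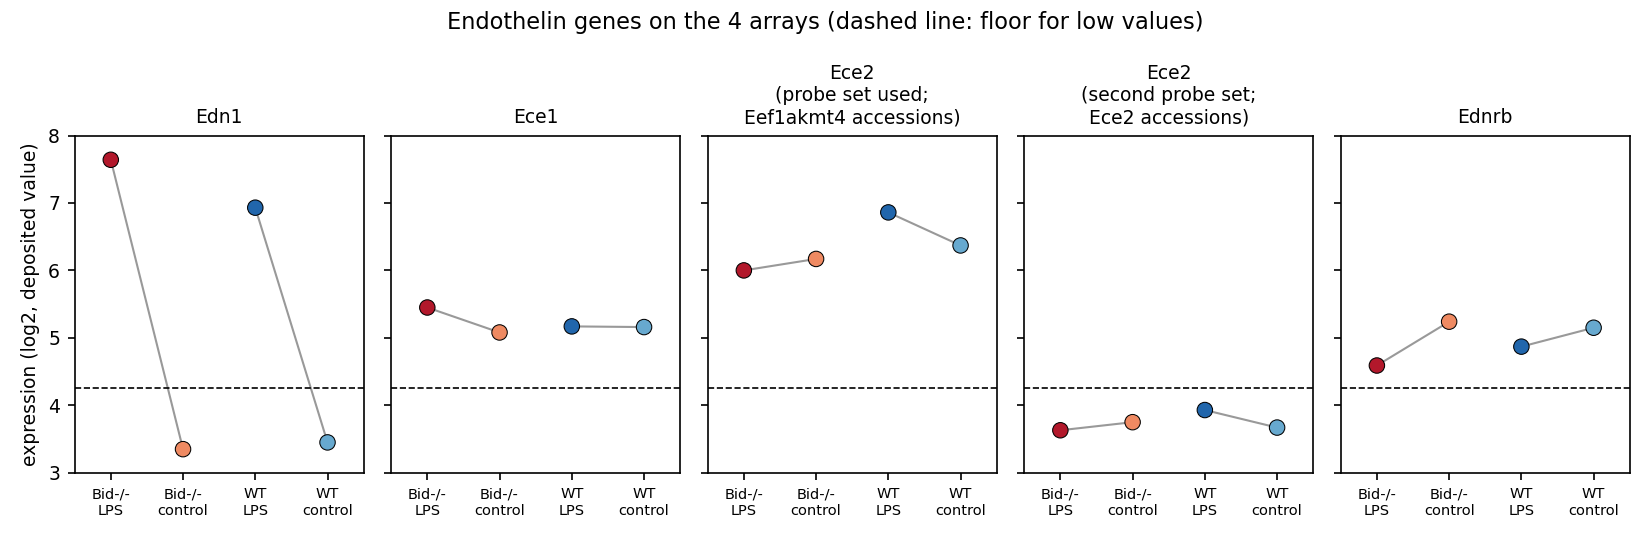
Deposited log2 expression (vertical axis) of the 4 measured endothelin genes on the 4 arrays (horizontal axis), 1 point per array, with both probe sets annotated to Ece2. Grey lines join the LPS and control array of a genotype label and the dashed line is the floor of 4.26; Edn1 crosses it in both labels, and the second Ece2 probe set stays under it on all 4 arrays.

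The converting enzyme genes showed no change near that of the ligand. Ece1 encodes the membrane metalloprotease that performs the activating cut of big endothelin-1. It read 5.45 with LPS and 5.08 without on the arrays labelled Bid-/-, against 5.17 with LPS and 5.16 without in WT cells. The LPS array labelled Bid-/- was the highest, and the other 3 values lay within 0.09 of each other. Its LPS changes were 0.37 (1.29-fold) on the arrays labelled Bid-/- and 0.01 (1.01-fold) in WT.

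Ece2 encodes a related converting enzyme that is active at acidic pH and found mostly in neural tissue. The probe set that carries this symbol with the highest mean read 6.00 with LPS and 6.17 without on the arrays labelled Bid-/-. In WT cells it read 6.86 with LPS and 6.37 without. Both arrays labelled Bid-/- were below both WT arrays, and the LPS changes had opposite signs, -0.17 on the arrays labelled Bid-/- and 0.49 in WT. However, of its 7 accessions only 3 were found in RefSeq. Of these, 1 belongs to Eef1akmt4, the neighbouring gene for a lysine methyltransferase, and 2 to the readthrough transcript Eef1akmt4-ece2. None of the 3 belongs to Ece2 alone, and the other accessions were not resolved. These values thus cannot be assigned to the converting enzyme.

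The second probe set with the symbol Ece2 lists 14 accessions, of which 4 were found in RefSeq, 2 of Ece2 and 2 of the readthrough transcript. It read 3.63 with LPS and 3.75 without on the arrays labelled Bid-/-, and 3.93 with LPS and 3.67 without in WT cells. All 4 values were under the floor, with LPS changes of -0.12 on the arrays labelled Bid-/- and 0.26 in WT. By that probe set, a level of Ece2 transcript above the floor was not detected on any array.

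Ednrb, the ETB receptor gene, was lower on both LPS arrays than on both control arrays. It read 4.59 with LPS and 5.24 without on the arrays labelled Bid-/-. In WT cells it read 4.87 with LPS and 5.15 without. The differences were -0.65 and -0.28, so that the level with LPS was 1.57-fold and 1.21-fold lower. All 4 values were above the floor, by less than 1.0. The 2 control arrays differed by 0.09 (labelled Bid-/- minus WT) and the 2 LPS arrays by -0.28.

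Among the measured members, 1 of 4 (Edn1) reached a 2-fold LPS rise in both genotype labels and none was at least 2-fold lower. Ece2 is counted here by the probe set with the highest mean, which cannot be assigned to the converting enzyme. Of all genes tested, 1.65% were at least 2-fold higher in both labels and 0.936% lower. On the arrays labelled Bid-/- alone 2.62% were at least 2-fold higher with LPS, and in WT alone 2.36%. Since Edn1 was picked for this contrast, nothing is read from the comparison of these shares.

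**Figure D2:**
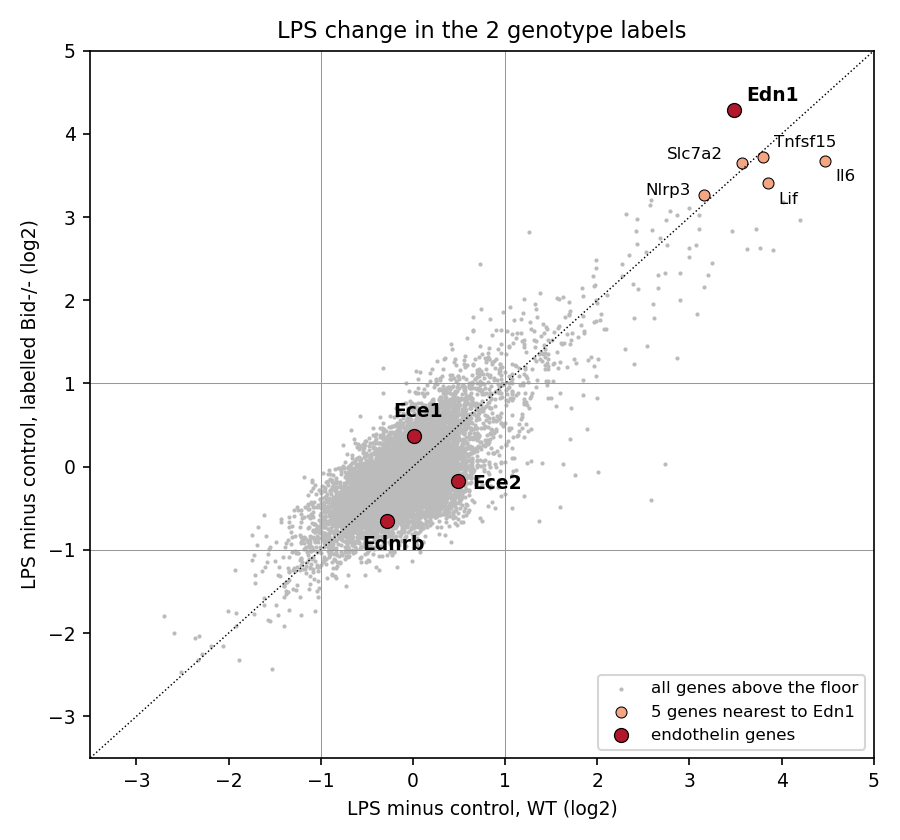
LPS change in WT cells (horizontal axis) against LPS change on the arrays labelled Bid-/- (vertical axis), both in log2 units, for each of 11326 genes (grey), the 4 endothelin genes (red) and the 5 genes nearest to Edn1 (orange). The dotted line marks equal changes and thin lines mark 2-fold. Edn1 lies above the dotted line at 3.48 and 4.29, while Ece1, Ednrb and the probe set named Ece2 lie within 2-fold in both labels.

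The genotype labels were not used to choose the members, and their difference could be tested across all genes with the additive limma fit of genotype label and LPS. Edn1 had a difference of 0.31 (labelled Bid-/- minus WT, SE 0.23, limma adjusted p = 0.649), made of 0.71 with LPS and -0.10 without, the second of 2 values under the floor. Ece1 had a difference of 0.10 (SE 0.14, limma adjusted p = 0.789). For the probe set named Ece2 it was -0.53 (SE 0.20, limma adjusted p = 0.623), made of -0.86 with LPS and -0.20 without. Ednrb had a difference of -0.095 (SE 0.14, limma adjusted p = 0.80).

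No member passed (0 of 4), and neither did any gene in this fit (0 of 11326, 0.0%), which has 1 residual degree of freedom. That residual is the difference of LPS response between the labels, which the fit takes as spread. An unadjusted limma p under 0.05 was found for 709 genes and for 0 of the 4 members, the lowest being 0.0588 for the Ece2 probe set. With LPS, none of the 4 was 2-fold different between the labels, where 0.795% of all genes were. With so few arrays these values do not show that the labels act alike on the members.

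The LPS change of Edn1 was 0.81 larger on the arrays labelled Bid-/- than in WT. This difference of response could not be tested, as it uses up the only residual degree of freedom. Among the 187 genes with a 2-fold or larger LPS rise in both labels it ranked 3, behind Phxr4 (1.56) and the adhesion receptor gene Adgrl2 (0.87), both named after their values were seen. This set was drawn from the same LPS values that chose Edn1. Over all 11326 genes the difference for Edn1 ranked 71, and both of its control values were under the floor. The median of these 187 genes was -0.04, with quartiles of -0.295 and 0.21, and 103 of them had the smaller change and 83 the larger on the arrays labelled Bid-/-. That split was 100 smaller and 94 larger after quantile normalization, and 102 smaller and 106 larger after removal of an intensity trend. The rank of Edn1 under these settings was 5 of 195 and 4 of 208. The difference of response was 0.36 for Ece1, -0.66 for the Ece2 probe set and -0.37 for Ednrb.

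Genes whose values over the 4 arrays were most like those of Edn1 were found by the Euclidean distance between profiles, each centred on the gene's own mean. The nearest of 11326 genes was Tnfsf15, at a distance of 0.589. It read 9.24 with LPS and 5.52 without on the arrays labelled Bid-/-, and 8.61 with LPS and 4.81 without in WT cells. Next came Lif, an interleukin-6 family cytokine (distance 0.678), Nlrp3, an inflammasome sensor (0.765), the cytokine gene Il6 (0.822) and Slc7a2 (0.823).

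All 5 were high on both LPS arrays. Without LPS each of the 5 had its higher control value under the label Bid-/-, by 0.31 (Nlrp3) to 0.95 (Slc7a2), while Edn1 was under the floor on both control arrays and gave no such difference. The distance was taken over 4 arrays in 2 treatments, so a large LPS change alone brings genes near to each other.

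**Figure D3:**
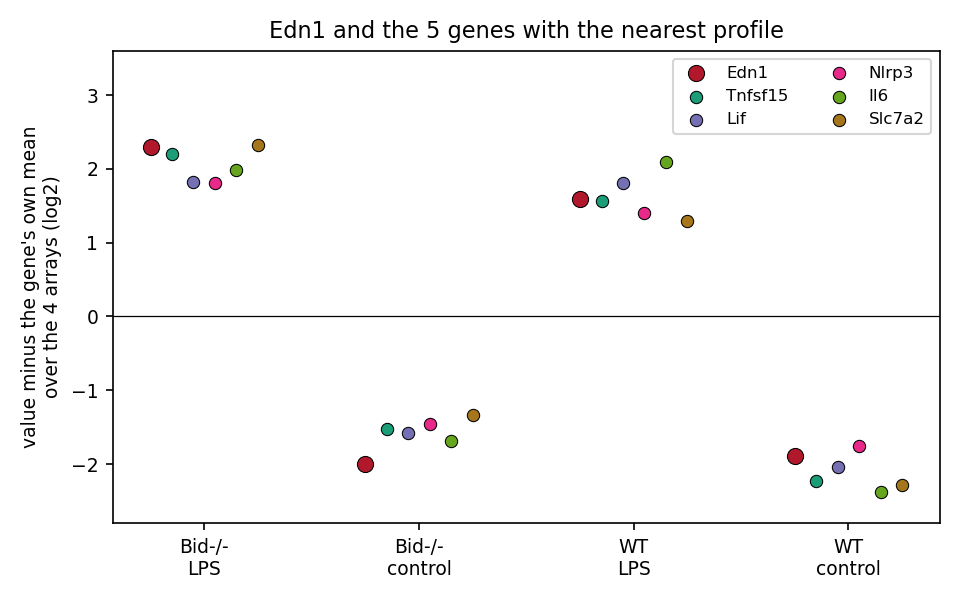
Value of each gene minus its own mean over the 4 arrays, in log2 units (vertical axis), for Edn1 and the 5 nearest genes on each array (horizontal axis), 1 point per gene and array. All 6 genes lie above 0 on the LPS arrays and below 0 on the control arrays, and the control values of Edn1 lie under the floor.

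The other genes of the pathway were read from 4 lists with 102 genes, of which 92 were measured and 60 reached the floor. In the additive limma fit for LPS 7 of the 60 passed as higher and 1 as lower, at an adjusted p under 0.05 over all genes. Over all 11326 genes, 1.68% passed as higher and 1.56% as lower. All 8 were also at least 2-fold changed in both labels. These calls depend on the floor, since without it no pathway gene and no gene at all passed (0 of 19938).

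Of 15 relatives, precursor proteases and peptide-degrading enzymes, 14 were measured, 5 reached the floor and 0 passed for LPS. The other ligand genes Edn2 and Edn3 were under the floor on all 4 arrays. Edn2 read 3.47 with LPS and 3.23 without on the arrays labelled Bid-/-, and 3.74 with LPS and 3.36 without in WT cells. Furin, which encodes the protease that trims the precursor, read 7.51 with LPS and 6.87 without on the arrays labelled Bid-/-, and 7.31 with LPS and 6.79 without in WT cells (limma adjusted p = 0.0934). Mme, which encodes neprilysin, a peptidase that degrades endothelin-1, was under the floor on every array. The median LPS change of the 5 genes was 0.17 on the arrays labelled Bid-/- and 0.13 in WT, beside -0.09 and -0.05 for all genes tested. Edn2, Edn3, Furin and Mme are outside the rule for named genes and were picked for their role after their values were seen.

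Of 33 genes for G proteins, phospholipases, kinases and regulators downstream of the endothelin receptors, 29 were measured and 22 reached the floor. In the limma fit 1 rose and 1 fell with LPS, and the list medians were 0.00 on the arrays labelled Bid-/- and -0.065 in WT. Rgs1, a GTPase activator that dampens G protein signalling of chemokine receptors, read 8.63 with LPS and 6.47 without on the arrays labelled Bid-/-. In WT cells it read 8.68 with LPS and 5.52 without, and it rose by 2.66 on average (SE 0.28, limma adjusted p = 0.0381). Rgs2, a GTPase activator that limits Gq signalling, the route used by ETA, read 5.28 with LPS and 6.47 without on the arrays labelled Bid-/-. In WT cells it read 5.09 with LPS and 6.25 without, and it fell by 1.18 on average (SE 0.11, limma adjusted p = 0.0327).

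Of 28 transcription factors with reported action on Edn1, 27 were measured and 22 reached the floor. In the limma fit 3 rose with LPS and 0 fell. Rel, which encodes the NF-kB subunit c-Rel, read 10.31 with LPS and 8.22 without on the arrays labelled Bid-/-, and 9.92 with LPS and 8.54 without in WT cells (limma adjusted p = 0.0474). Nfkb2, the gene of the p100 precursor, was 1.31 higher in both labels (limma adjusted p = 0.0379). As its changes were equal, its residual was 0. The fit averages that residual with the spread estimated from all genes, so the 0 makes this p-value smaller. Jund, an AP-1 subunit, was 1.01 higher on the arrays labelled Bid-/- and 1.19 higher in WT (limma adjusted p = 0.04995).

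Other AP-1 genes did not pass and pointed in different directions. Junb read 0.73 and 1.55 (labelled Bid-/- and WT, limma adjusted p = 0.0788), Jun -0.79 and -0.83 (0.0568) and Fos -0.71 and -0.51 (0.0782). Klf2, a factor that represses Edn1 in endothelium, read -0.68 and -0.69 (limma adjusted p = 0.0578), and Gata2 0.09 and 0.21 (0.413). These 5 genes did not meet the rule for named genes and were picked for their role after their values were seen. The list medians were 0.27 on the arrays labelled Bid-/- and 0.195 in WT.

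Of 26 other vasoactive mediators, 22 were measured and 11 reached the floor, and in the limma fit 3 rose with LPS and 0 fell. Adm encodes adrenomedullin, a vasodilator peptide. It read 9.23 with LPS and 7.44 without on the arrays labelled Bid-/-, and 10.03 with LPS and 7.41 without in WT cells (mean change 2.21, SE 0.25, limma adjusted p = 0.0414). Ptgs2, the inducible cyclooxygenase, was 2.00 and 2.90 higher (labelled Bid-/- and WT, limma adjusted p = 0.0364). Ptges, which encodes a prostaglandin E synthase, was 1.95 and 2.60 higher (0.0319). Ptgs2 read 12.15 with LPS and 10.15 without on the arrays labelled Bid-/-, and 11.89 with LPS and 8.99 without in WT cells. Ptges read 10.96 and 9.01 on the arrays labelled Bid-/-, and 10.87 and 8.27 in WT cells. Each of these 3 had the larger change in WT, by 0.65 to 0.90, whereas Edn1 had the larger change on the arrays labelled Bid-/-, a contrast that was not tested. For Ptgs2 and Ptges the control value was higher under the label Bid-/-, and the LPS value was not lower there. The list medians were 0.36 on the arrays labelled Bid-/- and 0.63 in WT.

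**Figure D4:**
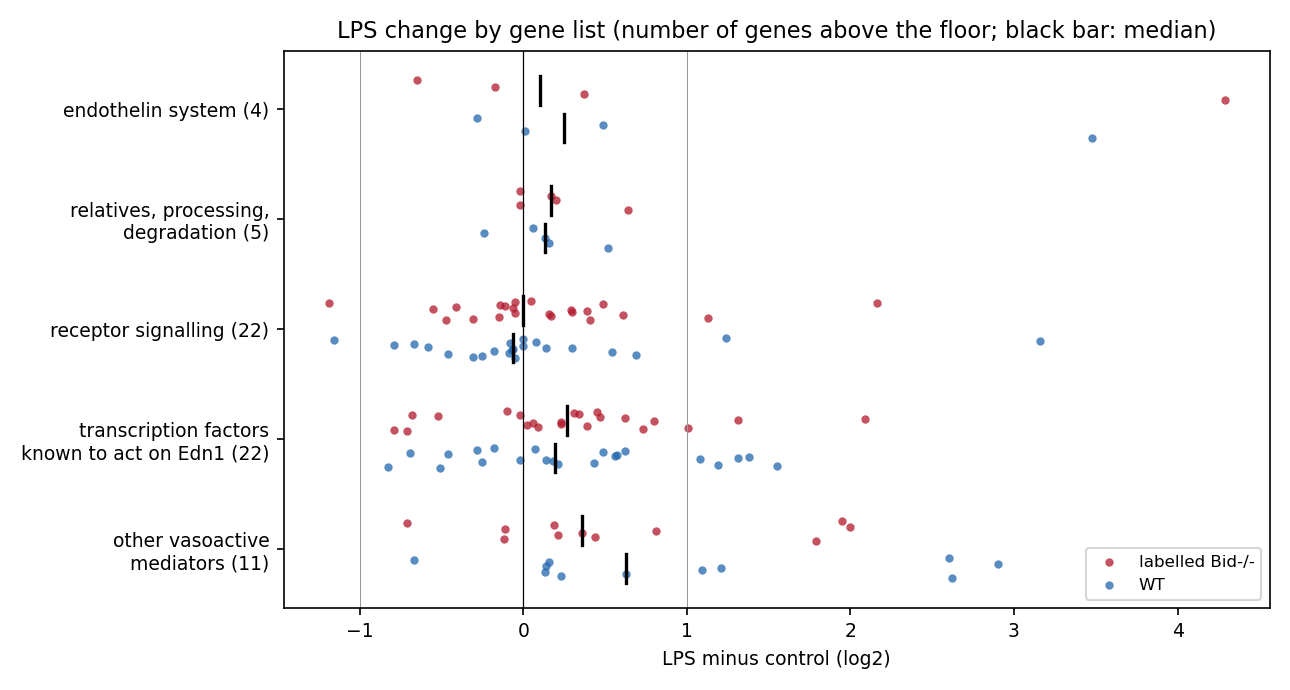
LPS change in log2 units (horizontal axis) for each gene above the floor in the endothelin system and the 4 lists around it (vertical axis, number of genes in brackets), with a point per gene for the arrays labelled Bid-/- (red, upper) and WT (blue, lower) and the median as a black bar. Edn1 is the single point beyond 3.4 in both labels, and the list medians lie between -0.065 and 0.63.

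Markers of other cells that could hold Edn1 or its receptors were read on the same arrays. Of 12 endothelial markers, 4 and 3 were at or above the floor on the LPS and control arrays labelled Bid-/-, and 5 and 3 on those of WT cells. Their summed linear values were 212.4 and 199.3 on the LPS and control arrays labelled Bid-/-, and 207.5 and 185.9 on those of WT cells. Cdh5, the endothelial cadherin, read 4.45 with LPS and 4.22 without on the arrays labelled Bid-/-, and 4.37 with LPS and 3.75 without in WT cells. Flt1, the endothelial marker with the highest mean, had LPS changes of 0.37 on the arrays labelled Bid-/- and 0.13 in WT. Pecam1, an endothelial adhesion gene, had LPS changes of -0.09 on the arrays labelled Bid-/- and -0.03 in WT. Those of the tight junction gene Cldn5 were 0.04 and -0.07. Of the 5 markers above the floor on at least 1 array, 4 had a positive LPS change under the label Bid-/- and 3 in WT, with median changes of 0.12 and 0.13. The sums include markers under the floor on every array, so they can reflect background more than transcript. They were higher with LPS in both labels, by far less than Edn1, and their part in the Edn1 result was not tested.

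Of 14 fibroblast and mural markers, 9 were at or above the floor on every array but the WT control, which had 8. Their sums were 692.8 with LPS and 813.3 without on the arrays labelled Bid-/-, and 753.5 with LPS and 422.1 without in WT cells. With LPS the sum was thus lower under the label Bid-/- and higher in WT, while Edn1 was higher with LPS in both. Of 11 astrocyte markers, 6 and 4 were at or above the floor on the LPS and control arrays labelled Bid-/-, and 7 and 5 on those of WT cells. Gfap, the astrocyte filament gene, lay between 4.06 and 4.19 on the 4 arrays, under the floor on each. Astrocyte sums were 226.9 with LPS and 213.3 without on the arrays labelled Bid-/-, and 248.5 with LPS and 207.3 without in WT cells, while Ednrb was lower with LPS in both labels. The gap junction gene Gja1 had the largest astrocyte marker change, 0.51 on the arrays labelled Bid-/- and 1.15 in WT, against list medians of 0.07 and 0.065, and Aldoc had changes of -0.42 and -0.09. Summed microglia markers were 7575.3 with LPS and 10165.5 without on the arrays labelled Bid-/-, and 9338.0 with LPS and 11430.0 without in WT cells, so they moved in the direction of Ednrb. Oligodendrocyte lineage markers, of which 6 of 7 were at or above the floor on 3 arrays and 4 on the WT control, summed to 391.5 with LPS and 591.6 without on the arrays labelled Bid-/-, and to 342.6 with LPS and 529.1 without in WT cells. Cnp, a myelin enzyme gene, read 7.88 with LPS and 8.76 without on the arrays labelled Bid-/-, and 7.60 with LPS and 8.58 without in WT cells, while the list medians of LPS change were 0.01 and -0.075. Of 8 neuron markers, 1 was at or above the floor on each array. The part of any of these markers in the Ednrb and Edn1 results was not tested.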

How the data were processed

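Per the submitters' processing notes, RMA, Affymetrix Expression Console and Partek 6.2 were used, with no role or order stated. The deposited values were read as log2 expression, with the base taken from their range (1.4 to 13.5). Medians of the deposited arrays ran between 4.24 and 4.28, and no further scaling was applied. Platform annotation gave 1 symbol to 21789 of 28944 probe sets, several to 1621 and none to 5534. Genes were represented by the probe set with the highest mean, and 0 value columns were left unused. LPS effects on members are plain differences. Genotype and other pathway genes were tested with limma 3.58.1 in R 4.3.3 (additive model, eBayes with intensity trend, Benjamini-Hochberg over 11326 genes, threshold 0.05). The code was run on simulated data with 200 genes changed by LPS. Those data were not rounded and held no genotype effect, so they do not show how the fit performs on these arrays. With 1 array per group, the residual of each gene in this fit comes from its difference of LPS response between the labels. SEs and p-values thus treat that difference as spread and do not measure spread between replicates. The labels do not say whether arrays came from separate cultures. The number of arrays limits precision. Rounding to 2 decimals left 169 genes with a residual of 0.

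Named genes were the members, Bid, up to 8 genes per pathway list that passed for LPS or were at least 2-fold changed in both labels, the 5 nearest to Edn1, and up to 3 markers per cell type list by mean level plus Acta2, Cdh5, Gfap and Cx3cr1. The members and lists were chosen with earlier results of these data known. Alternatives were other floors, scaling, probe set choices and variance priors.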

Additional observations from a re-analysis of the deposited data

Results flagged for a closer look

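The LPS change had opposite signs in the 2 genotype labels for 10 of the members and named genes, each from 1 array against 1 array, and these differences were not tested. The share of all genes with opposite signs was not computed, so nothing is read from this count. Among the members this held for the probe set named Ece2, with a difference of response (labelled Bid-/- minus WT) of -0.66 from changes of -0.17 and 0.49. Bid itself had a difference of 1.11 (0.44 and -0.67). Among markers of fibroblast and mural cells it was -2.02 for Dcn (-0.65 and 1.37) and -1.39 for Acta2 (-0.50 and 0.89). Smaller differences were read for the astrocyte markers Fgfr3 (0.34) and Gfap (0.13), the endothelial marker Cldn5 (0.11), the myelin gene Mag (-0.46), and the neuron markers Gad1 (-0.60) and Snap25 (0.33). Gfap and Snap25 were under the floor on every array, and Cldn5 changed little in either label (0.04 and -0.07).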

How the results depend on the processing

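The count of 1 member at least 2-fold changed in both labels was the same without a floor, with a floor of 5, after quantile normalization, after removal of an intensity trend, and with other probe set choices. Under these 6 settings the LPS change of Edn1 stayed between 4.26 and 4.38 on the arrays labelled Bid-/- and between 3.48 and 3.53 in WT; with the control values at the floor, an alternative chosen after seeing the data, it moved to 3.38 and 2.67. Its difference of response was between 0.74 and 0.85 under the 6 settings and 0.71 with the control values at the floor. No member passed for genotype under any of 9 settings (limma adjusted p for Edn1 between 0.285 and 0.715, and for the Ece2 probe set between 0.0758 and 0.688). Over all genes the genotype fit called 40 after quantile normalization, 286 with the intensity trend removed, 3 with noise inside the rounding, and 0 in the other 6.

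The count of other pathway genes passing for LPS, 7 higher and 1 lower, depended on the setting. It was 0 and 0 without a floor, 19 and 7 after quantile normalization, 19 and 7 with the intensity trend removed, 12 and 6 with robust eBayes, and 16 and 7 with noise inside the rounding; with a floor of 5, 3 were lower. Over all genes the LPS calls, 190 higher and 177 lower, ran from 0 without a floor to 1068 higher and 1391 lower with the intensity trend removed; the cause was not tested. The 1.5-fold threshold gave 11 higher and 4 lower pathway genes in both labels. By Pearson correlation over the 4 arrays, 0 of the 5 genes most like Edn1 were shared. No paired analysis of replicates was possible because each group had 1 array. Signals over background were not used here, which limits what can be said of Edn1 without LPS.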

Other observations

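Ranked by Pearson correlation with Edn1 over the 4 arrays, among 186 genes with a 2-fold or larger LPS rise in both labels, the first were the neighbouring microRNA genes Mir221 and Mir222, Tpbg, Ifitm7 and Calcrl. Calcrl encodes the receptor through which adrenomedullin, the product of Adm, acts. Its LPS change was 2.29 on the arrays labelled Bid-/- and 1.95 in WT. Mir222 was 3.20 higher on the arrays labelled Bid-/- and 2.58 higher in WT, and Mir221 was 2.98 and 2.43 higher. Like Edn1, each had the larger change on the arrays labelled Bid-/-, which is what a high correlation with Edn1 over these arrays selects. These genes were named after their values were seen, and no test was made of them.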
